A study of Mus musculus with 10 samples.

Results

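The open chromatin of Myc-CaP cells treated with cisplatin (Cispl) was set directly against that of cells treated with oxaliplatin (Oxali). Of 332669 regions in the Cispl and Oxali lists, 55874 overlapped no region of the other list by 1 bp, with 36265 of them in the Cispl list of 174048 regions and 19609 in the Oxali list of 158621 regions. The 5 lists of the series hold 748625 regions. Myc-CaP is a prostate cancer cell line from a male FVB/NJ mouse. The series profiled 10 libraries by the assay for transposase-accessible chromatin (ATAC-seq), in which a transposase cuts open DNA, and this comparison used 4 of them. Cispl and Oxali cells each received 2 µM of the drug for 48 h, and untreated Ctrl cells were collected at the same 48 h. IFNγ and Oxali + IFNγ cells were not used here. Each list was called on 2 libraries pooled before calling, so that every value is that of 1 pooled list, no difference has a replicate check, and these lists allow no test between the drugs. Intervals on shares and levels are at the 95% level and cover counting error only, and sequenced reads without molecular identifiers are not independent molecules.

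Cisplatin and oxaliplatin are square-planar platinum(II) drugs. Cisplatin carries ammine ligands and chloride leaving groups, whereas oxaliplatin carries a diaminocyclohexane ligand and an oxalate leaving group. Both bind the N7 atoms of neighbouring purines, mostly guanines of a GpG step, and the carrier ligand stays on the adduct, which excision repair, mismatch repair and translesion polymerases read. Oxaliplatin is also known to disturb ribosome assembly and to cause an immunogenic form of cell death. Equal concentrations of drugs are not equal effects, and neither adducts nor survival were measured in these files.

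A region was called strong when its q-value, the p-value of the peak caller after correction for the number of positions, was 0.01 or lower. The level of a region was the pileup at its highest summit, that is the number of extended reads stacked on that base, and the local background was the number that the caller expected there. The Cispl list had more depth, with a genome background of 13.8 reads against 11.3 for Oxali and 12.1 for Ctrl, a Cispl-to-Oxali ratio of 1.22. It also stopped at a higher −log10 p (2.99, against 2.00 for Oxali), so weak regions were listed for Oxali only. Of the marker genes of prostate luminal epithelium, Krt8, Hoxb13 and Foxa1 had a start-site region called in both lists, with Cispl and Oxali pileups of 611 and 605 at Krt8 and 836 and 857 at Hoxb13. Cdh1, Epcam and Krt18 had none. Of 10 markers of fibroblasts, leukocytes and endothelium, 6 had one, with pileups of 1115 and 1142 at Pdgfra, 439 and 419 at Col1a1 and at most 92 at the other 4. Cd3e, Itgam, Pecam1 and Cdh5 had no start-site region called in both lists.

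Sequences of 201 bases centred on the summit (GRCm38/mm10, plus strand) are shown for 10 of the leading regions described in the text, and each was read from the reference genome, which is of another strain than the FVB/NJ cells. Cispl-only and Oxali-only mean called with that drug and overlapping no region of the other list. Capitals mark matches to the consensus letters searched. The 17 searched included AP-1 (TGANTCA), TEAD (GGAATGT), RUNX (TGTGGTT), FOXA (TGTTTAC), the STAT site GAS (TTCCNGGAA) and the antioxidant response element (TGACNNNGC). They also included, by a longer consensus each, the interferon-stimulated response element (ISRE) and the NF-κB, CTCF and steroid receptor elements. Some of the 17 are not described in the text. Both strands were searched. A match describes letters only, and a window without capitals holds none of these letters.
Rsrc1 intron, Cispl-only, chr3:67015550-67015750: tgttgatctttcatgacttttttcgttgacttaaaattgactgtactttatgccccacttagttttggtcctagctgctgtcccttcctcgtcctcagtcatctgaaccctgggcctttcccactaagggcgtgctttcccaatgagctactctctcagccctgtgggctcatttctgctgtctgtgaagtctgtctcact
Tgfbr3 intron, Cispl-only, chr5:107250712-107250912: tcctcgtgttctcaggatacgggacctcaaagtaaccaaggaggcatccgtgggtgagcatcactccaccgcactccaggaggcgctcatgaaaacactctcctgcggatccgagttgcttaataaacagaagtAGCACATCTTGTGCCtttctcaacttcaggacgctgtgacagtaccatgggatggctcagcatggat
Cop1 intron, Cispl-only, chr1:159234602-159234802: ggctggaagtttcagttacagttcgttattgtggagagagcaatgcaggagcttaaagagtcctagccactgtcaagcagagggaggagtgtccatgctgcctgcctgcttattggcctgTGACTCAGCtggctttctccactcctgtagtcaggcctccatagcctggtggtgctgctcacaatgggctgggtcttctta
Suclg2 intron, called in both and higher with Cispl, chr6:95593393-95593593: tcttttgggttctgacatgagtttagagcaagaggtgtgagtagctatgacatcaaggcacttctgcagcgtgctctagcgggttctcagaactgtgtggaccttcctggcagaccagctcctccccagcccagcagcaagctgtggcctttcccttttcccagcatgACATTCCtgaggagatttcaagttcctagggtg
Egfr intron, Oxali-only, chr11:16897860-16898060: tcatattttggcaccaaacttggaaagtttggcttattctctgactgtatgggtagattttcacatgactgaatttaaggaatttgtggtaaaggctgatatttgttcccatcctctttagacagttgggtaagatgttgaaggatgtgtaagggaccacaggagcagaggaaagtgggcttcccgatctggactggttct
intergenic, nearest coding start Egflam, Oxali-only, chr15:7597408-7597608: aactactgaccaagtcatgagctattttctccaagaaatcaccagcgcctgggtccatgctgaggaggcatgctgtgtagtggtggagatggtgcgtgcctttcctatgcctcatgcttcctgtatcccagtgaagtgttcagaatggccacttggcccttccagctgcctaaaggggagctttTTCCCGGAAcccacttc
Prdm11 coding exon, called in both and higher with Oxali, chr2:92975510-92975710: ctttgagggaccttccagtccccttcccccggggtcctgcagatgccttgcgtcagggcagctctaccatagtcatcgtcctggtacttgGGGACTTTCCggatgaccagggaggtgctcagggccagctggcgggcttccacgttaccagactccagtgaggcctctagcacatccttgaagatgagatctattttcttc
intergenic, nearest coding start Klf4, called in both and higher with Oxali, chr4:55845636-55845836: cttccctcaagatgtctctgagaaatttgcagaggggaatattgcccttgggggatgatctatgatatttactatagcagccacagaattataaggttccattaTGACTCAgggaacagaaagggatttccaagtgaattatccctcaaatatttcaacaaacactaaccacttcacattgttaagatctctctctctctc
Ranbp9 intron, called in both and higher with Oxali, chr13:43411825-43412025: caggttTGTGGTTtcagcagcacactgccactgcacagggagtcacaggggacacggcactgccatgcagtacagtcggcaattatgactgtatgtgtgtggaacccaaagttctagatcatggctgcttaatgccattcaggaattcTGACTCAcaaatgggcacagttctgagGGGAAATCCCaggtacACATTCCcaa
Mfhas1 intron, called in both and higher with Oxali, chr8:35614117-35614317: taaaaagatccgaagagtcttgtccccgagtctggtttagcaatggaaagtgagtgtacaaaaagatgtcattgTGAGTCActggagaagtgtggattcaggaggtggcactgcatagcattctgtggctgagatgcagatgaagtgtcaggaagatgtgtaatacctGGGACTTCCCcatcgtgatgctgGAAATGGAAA
The windows were picked as examples after their values were seen, and the counts over whole sets follow. Of the windows shown, Cop1, Klf4, Ranbp9 and Mfhas1 hold an AP-1 match, in Cop1 within the antioxidant element, and Prdm11, Ranbp9 and Mfhas1 an NF-κB match. Tgfbr3 holds a steroid receptor element, Suclg2 and Ranbp9 a TEAD match and Egflam a GAS match, and Rsrc1 and Egfr hold none. Over the full leading groups, an AP-1 match was in 1 of the 10 Cispl-only and 4 of the 10 Oxali-only regions of lowest q. It was in 0 of the 10 shared regions with the highest and 5 of the 10 with the lowest ratio of Cispl over Oxali.

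Among strong regions, 34727 of 171785 Cispl regions (20.2%) overlapped no Oxali region, and 17174 of 153700 Oxali regions (11.2%) overlapped no Cispl region. These are called Cispl-only and Oxali-only from here on. Cispl-only regions thus made up 66.9% of all one-list regions, 65.0% at matched depth and 67.4% with the same p minimum in both lists. With each list cut to its 150000 intervals of lowest p, which by construction brings the share near equality, 23697 Cispl-only and 22053 Oxali-only regions remained (51.8%). One-list regions were narrow and weak. Their median width was 189 bp for Cispl and 191 bp for Oxali, against 490 bp for the 132607 regions called in both lists. Their median pileup was 42 for Cispl-only and 35 for Oxali-only, or 2.56 and 2.75 times the local background, and 1.91% and 2.44% reached 5 times the background. A region with a pileup of 20 over the genome background would have entered the Oxali list, which corresponds to 24.4 at the depth of the Cispl list. Of Cispl-only regions, 35.3% (12275) stood above 2 times that pileup. Of Oxali-only regions, 26.5% (4554) stood above 2 times the pileup that the Cispl list needed over its genome background. Of all summits, 36.5% with Cispl and 38.4% with Oxali lay at the genome background, and a higher local background needs more reads. These shares are therefore upper limits for regions where a missing call implies a 2-fold difference. Most one-list regions allow a difference below 2-fold. A region of the other list lay within 500 bp of 33.9% (11758) of Cispl-only and 23.1% (3970) of Oxali-only regions.

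The Ctrl list was used to ask whether the regions were open before treatment. It held 17.8% (17.4 to 18.2%) of Cispl-only and 11.8% (11.3 to 12.2%) of Oxali-only regions, against 74.8% of the regions called in both platinum lists. Absent from the Ctrl list were 28562 regions on the Cispl side and 15156 on the Oxali side. The Ctrl list had fewer regions (122298) than either platinum list, and one-list regions were weak. Absence from it therefore does not show that a region was closed. Cispl-only regions that were called in Ctrl were stronger than the others (median pileup 48 against 41), and the same held for Oxali-only regions (38 against 34).

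The drugs differed in the sequence under their regions. An AP-1 match, the site bound by FOS and JUN dimers, was found within 100 bp of the summit in 30.1% (29.4 to 30.8%) of Oxali-only but in 11.8% (11.4 to 12.1%) of Cispl-only regions, a Cispl-to-Oxali ratio of 0.390 (0.376 to 0.405). All regions of both lists held it in 21.3% and regions called in both lists in 22.6%, so the drugs fell on either side of the common level. Regions called in both lists but differing in level, chosen without reference to sequence, showed the larger contrast. Of those at least 2-fold higher with Oxali, 52.1% (50.1 to 54.1%) had an AP-1 match, and of those at least 2-fold higher with Cispl, 14.4% (13.1 to 15.7%). Repeated sites followed the same order: among regions with a match, 19.6% of those higher with Oxali held 2 or more, against 2.92% of those higher with Cispl.

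Other consensus sequences on the Oxali side were those of factors known from enhancers and inflammation. The NF-κB consensus was in 3.72% of Oxali-only and 1.68% of Cispl-only regions, and in 6.05% (5.17 to 7.08%) of the regions higher with Oxali against 1.26% (0.911 to 1.74%) of those higher with Cispl, where all regions had 2.47%. TEAD factors carry the output of the Hippo pathway, and their consensus was in 6.33% of Oxali-only and 3.61% of Cispl-only regions, and in 11.0% against 3.43% of the regions that differed in level (all regions, 4.84%). RUNX matches were in 13.7% and 9.41% of Oxali-only and Cispl-only regions (all regions, 10.6%), and FOXA matches in 4.76% and 3.63% (all regions, 4.39%). ISRE matches were in 3.18% of Oxali-only and 2.40% of Cispl-only regions, but the regions that differed in level did not follow, with 1.84% (1.37 to 2.46%) higher with Oxali and 2.06% (1.60 to 2.65%) higher with Cispl.

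Fewer sequences stood on the Cispl side. The palindromic element bound by steroid receptors was in 4.09% (3.42 to 4.88%) of the regions higher with Cispl and in 1.42% (1.02 to 1.98%) of those higher with Oxali (all regions, 1.72%), and in 1.31% of Cispl-only and 1.03% of Oxali-only regions. GAS was in 1.92% (1.48 to 2.49%) of the regions higher with Cispl and 0.585% (0.349 to 0.979%) of those higher with Oxali, and in 1.01% and 0.594% of Cispl-only and Oxali-only regions (all regions, 0.894%). The site of CTCF, the insulator factor, was below its common level on both sides, and further below on the Oxali side. It was found in 1 of the 2395 regions higher with Oxali (0.0418%) and 58 of the 2860 higher with Cispl (2.03%). Of the 132607 regions called in both lists, 6587 held it (4.97%). Cispl-only regions had 1.49% and Oxali-only regions 0.809% (all regions, 3.93%). The exact p53 consensus of adjoining half-sites was almost absent everywhere, with 2 Cispl-only, 1 Oxali-only and 11 shared regions. The letters of the antioxidant response element, which overlap AP-1 and were matched by 10.4% of all regions, were in 11.0% of Oxali-only and 9.02% of Cispl-only regions. AP-1 matches in regions without those letters were still in 25.3% of Oxali-only and 9.98% of Cispl-only regions.

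**Figure D1:**
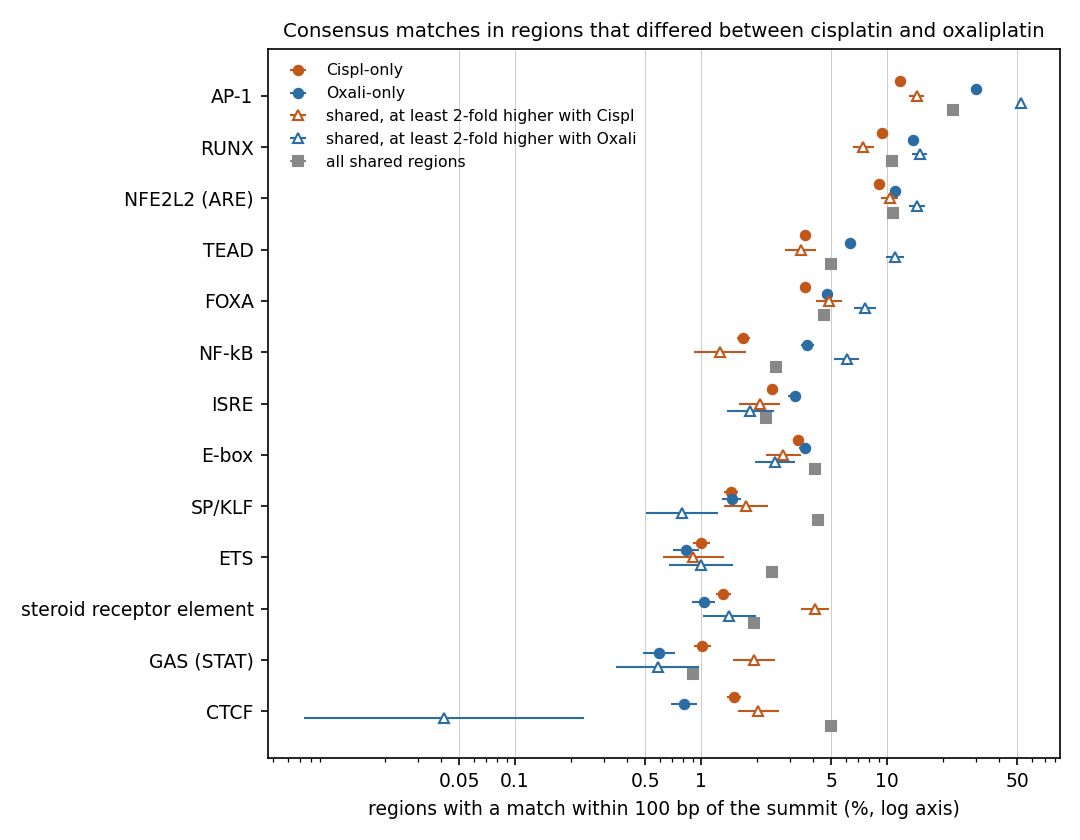
Share of regions with a consensus match within 100 bp of the summit (log axis) in the Cispl-only, Oxali-only, shared and at least 2-fold different regions, with 95% Wilson intervals. AP-1 stands at 52.1% in regions higher with Oxali and 14.4% in regions higher with Cispl, and the steroid receptor element stands at 1.42% and 4.09%.

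The AP-1 share moved in steps with the difference in level over all 132607 regions called in both lists. With the log2 ratio of Cispl over Oxali scaled to a median of 0, it was found in 124 of the 248 regions at or below −1.5 (43.8 to 56.2%), and its share was 52.4% from −1.5 to −1, 48.4% from −1 to −0.75, 43.4% from −0.75 to −0.5, 32.7% from −0.5 to −0.25 and 20.6% from −0.25 to 0. Above 0 it levelled off, between 16.2% and 13.2%. The NF-κB share fell from 9.27% (6.26 to 13.5%) of the 248 regions at or below −1.5 to 1.06% (0.411 to 2.68%) of the 379 above 1.5. The steroid receptor element went the other way, from 1.21% (0.412 to 3.50%) to 5.54% (3.65 to 8.32%) in the same classes, though not evenly, with 2.43% from −0.5 to −0.25 and 1.42% from 0 to 0.25. CTCF was highest in the middle, at 7.97% from 0 to 0.25 and 7.98% from 0.25 to 0.5, and was found in 0 of the 248 regions at or below −1.5, an upper limit of 1.53%.

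**Figure D2:**
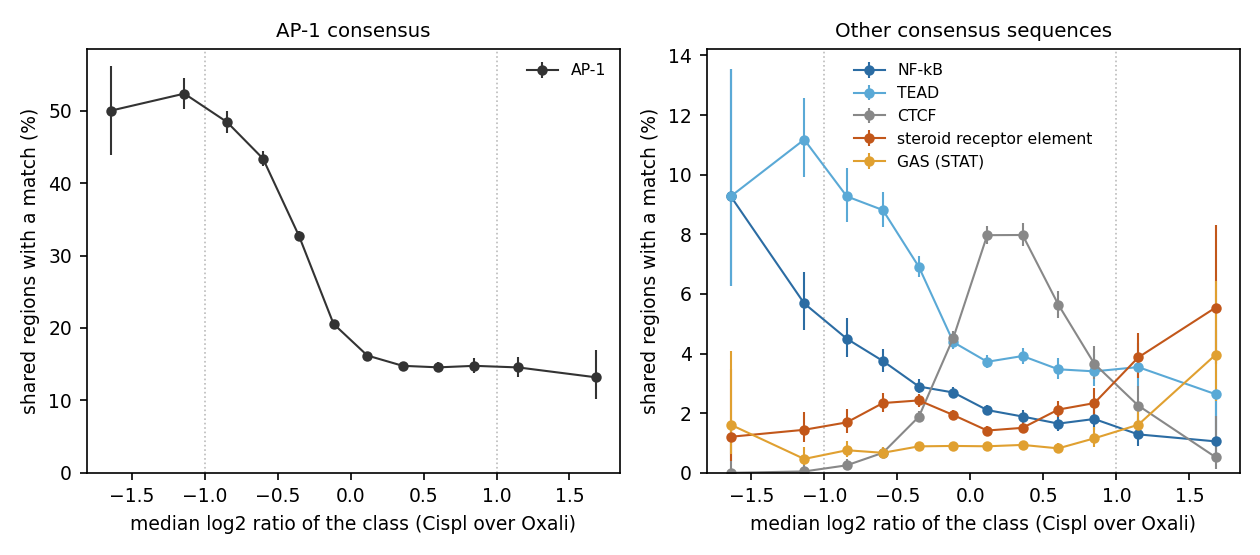
Share of regions called in both lists with a match, against the median log2 ratio (Cispl over Oxali) of classes of that ratio, with 95% Wilson intervals and dotted lines at 2-fold, AP-1 on the left and 5 other sequences on the right. AP-1 drops from 52.4% in the class from −1.5 to −1 to 20.6% just below 0 and stays at 13.2% to 16.2% above 0.

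The one-list regions were then split by strength. From the weakest Oxali-only regions, with a summit of at most 2 times the local background, to the strongest, above 5 times, the AP-1 share went from 18.3% to 57.0% (239 of 419 regions, 52.3 to 61.7%). Cispl-only regions showed no such course, with 8.43% in the weakest class, 13.2% between 2.5 and 3 times and 11.0% (73 of 662 regions, 8.86 to 13.6%) in the strongest. NF-κB matches were in 11.2% of the strongest Oxali-only class and 2.27% of the strongest Cispl-only class. The steroid receptor element lay on the Cispl side, and its share of Cispl-only regions went from 0.920% (0.645 to 1.31%) in the weakest class to 4.08% (27 of 662 regions, 2.82 to 5.87%) in the strongest. In the same classes of Oxali-only regions it was 0.616% (0.263 to 1.43%) and 0.477% (2 of 419 regions, 0.131 to 1.72%). Between 3 and 4 times it was 1.10% (0.849 to 1.43%) of Oxali-only regions. CTCF matches likewise went from 0.184% to 3.02% (1.96 to 4.62%) of Cispl-only regions and stood at 0.369% and 0.239% (0.0421 to 1.34%) of Oxali-only regions. The AP-1 contrast was present at each position and prior state. The share was 22.9% and 9.58% at start sites, 30.2% and 12.6% in introns and 31.7% and 11.3% between genes for Oxali-only and Cispl-only regions. It was 24.0% and 11.4% in regions that the Ctrl list held and 30.9% and 11.8% in those that it did not. The contrast was present in each of 5 classes of GC content, from 33.4% and 12.8% in the class of lowest GC to 19.1% and 7.17% in the highest.

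**Figure D3:**
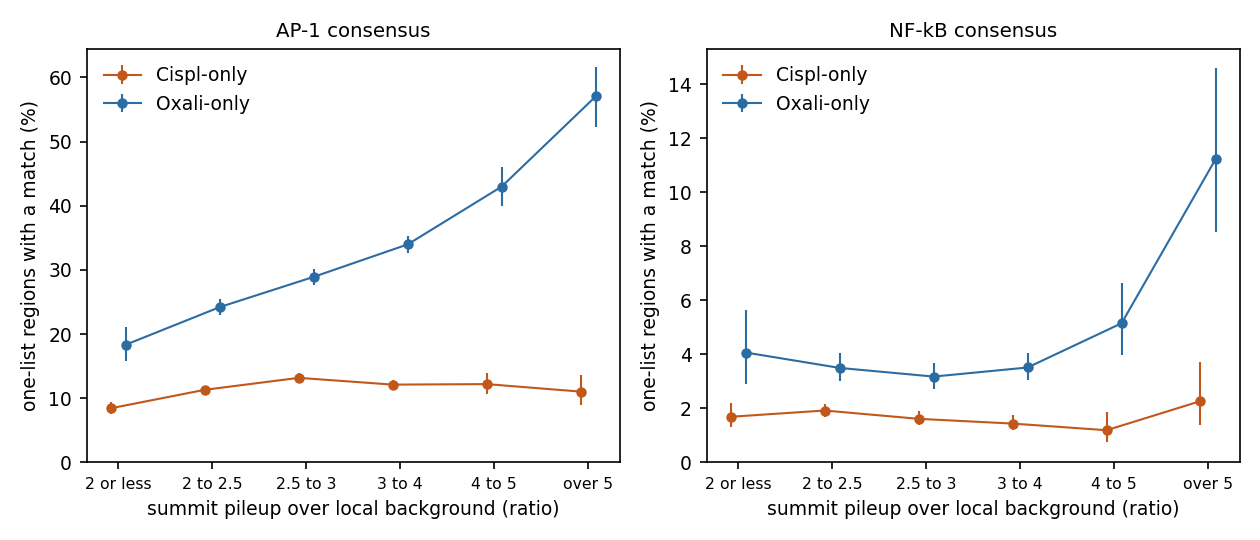
Share of Cispl-only and Oxali-only regions with an AP-1 or NF-κB match in 6 classes of summit pileup over local background, with 95% Wilson intervals. The AP-1 share of Oxali-only regions climbs from 18.3% to 57.0%, and that of Cispl-only regions stays between 8.43% and 13.2%.

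Base composition differed less. The mean GC content of the summit windows was 48.6% for Cispl-only, 47.6% for Oxali-only and 50.3% for shared regions, and GG or CC steps, the letters of the GpG crosslink site on either strand, made up 13.0, 12.6 and 14.0 of every 100 steps. Windows at least 50% repeat-masked were equally common in both kinds of one-list region (20.0% and 20.1%) and less common in shared regions (15.3%). Among regions that differed in level they made up 13.6% on the Cispl side and 6.30% on the Oxali side.

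The drugs also differed in where their regions lay. Introns held 47.8% (47.3 to 48.4%) of Cispl-only and 41.3% (40.5 to 42.0%) of Oxali-only regions, whereas 33.9% (33.4 to 34.4%) and 45.3% (44.6 to 46.1%) were intergenic. Start-site regions, within 1 kb of an annotated start, were 12.0% of Cispl-only, 8.74% of Oxali-only and 19.2% of shared regions. The median distance to the nearest start site of a protein-coding gene was 14744 bp for Cispl-only and 24587 bp for Oxali-only regions, and 13002 bp and 34443 bp for the shared regions higher with Cispl and with Oxali. In those 2 sets, 24.8% and 45.1% were intergenic. Autosomes differed little in the balance, from 60.4% Cispl-only on chromosome 18 to 71.1% on chromosome 11, with 60.7% on chromosome X.

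Cispl-only regions were concentrated in genes with an open start site. Protein-coding genes were split by the level of their shared start-site region, and the genes of the upper tertile held 30.2 Cispl-only and 6.44 Oxali-only regions per Mb. Genes without a shared start-site region held 8.88 and 6.68 per Mb. In the lower tertile the densities were 22.4 and 11.4 per Mb, and in the middle tertile 28.4 and 6.67 per Mb. Regions called in both lists were also denser in genes with an open start site (105 per Mb in the upper tertile against 32.8 per Mb without one), so the Cispl-only density followed that of all open regions, whereas the Oxali-only density did not. Cispl-only regions made up 57.1% (56.0 to 58.2%) of one-list regions in genes without such a start site and 82.4% (81.7 to 83.1%) in the upper tertile.

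**Figure D4:**
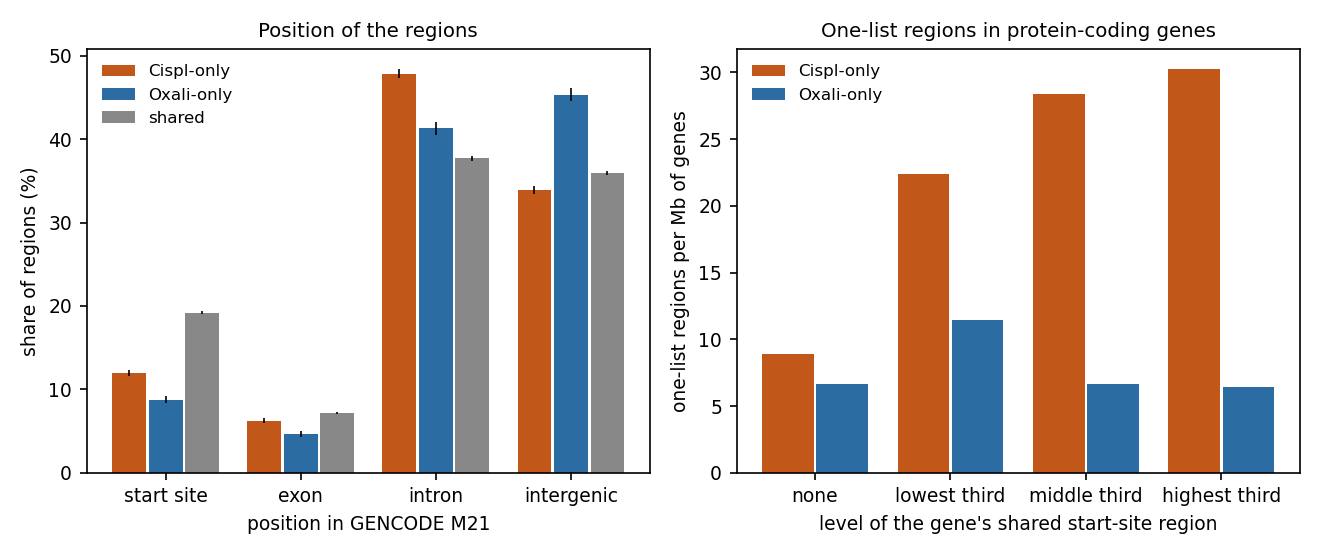
Left, share of Cispl-only, Oxali-only and shared regions at start sites, in exons, in introns and between genes, with 95% Wilson intervals. Right, one-list regions per Mb of protein-coding genes by the level of the shared start-site region, where Cispl-only density goes from 8.88 to 30.2 and Oxali-only density stays between 6.44 and 11.4.

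Of 21911 protein-coding genes, 47.6% (10436) had a Cispl-only and 26.2% (5734) an Oxali-only region in the gene or within 5 kb. Long genes had them more often, from 20.4% to 79.1% of genes for Cispl-only and from 9.42% to 55.9% for Oxali-only between the shortest and the longest of 5 length classes. Single genes that gathered many regions from 1 drug were picked after their values were seen. Zbtb20, a zinc finger repressor, held 49 Cispl-only and 2 Oxali-only regions. Lpp, a focal adhesion protein, held 47 and 2, Thsd4 36 and 1, the phosphodiesterase Pde4d 38 and 5, and the scaffold Magi1 30 and 0. In the opposite direction, the sialyltransferase gene St6galnac3 held 6 Cispl-only and 20 Oxali-only regions, the guidance ligand Slit3 held 7 and 17, and the splicing factor Rbfox3 held 3 and 14.

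Of the 10 Cispl-only regions of lowest q, 8 are described here. In Rsrc1, which encodes a splicing-related protein, an intronic region at chr3:67015258-67016307 had a pileup of 170 (145 to 198) over 13.8, was also called in Ctrl, and had no Oxali region within 15344 bp. In Cox10, which encodes a haem A synthesis enzyme, a region at chr11:63964958-63966078 had 156 (132 to 182) over 13.8 and was not called in Ctrl. Tgfbr3, the TGFβ co-receptor betaglycan, had 157 (133 to 184) over 16.9 at chr5:107250499-107250978, and Cop1, a ubiquitin ligase that targets JUN, had 317 (283 to 354) over 75.3 at chr1:159234402-159234833. Suclg2, Smchd1, Rab37 and the neighbourhood of Arl14epl held the others. Of all 10, the Ctrl list held 4, those in Rsrc1, Tgfbr3, Cop1 and Smchd1.

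Of the 10 Oxali-only regions of lowest q, 9 are described here. The first, 110270 bp from the start of Rgs17, had 124 (103 to 148) over 11.3 in a window that was 91.5% repeat-masked. At the start site of Coro1c, a gene for an actin-binding coronin, 373 (336 to 413) reads stood over 115 at chr5:113874475-113874736. In an intron of Egfr, the epidermal growth factor receptor, 276 (244 to 311) stood over 75.7 at chr11:16897636-16898235, and the Ctrl list held this region. Cgn, the tight junction protein cingulin, had 239 (210 to 271) over 61.5 in a coding exon at chr3:94761297-94761649. The Aff3 region, with 114 over 11.3, lay in a window in which 62.0% of 10-base words recurred. The others lay in an intron of Tnn, in an intron of the Fgfr2 gene model 733679 bp from its start, and between genes. Those between genes were 53168 bp from the start of 4930432M17Rik and 199113 bp from that of Egflam. Of all 10, the Ctrl list held 2, those at Egfr and 4930432M17Rik. Among the 9 described, the windows at Coro1c, 4930432M17Rik and Cgn held an AP-1 match, as did that in Cop1 of the Cispl-only regions.

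Of the Oxali-only regions at start sites, 2 near listed platinum-binding genes were picked after their values were seen. Mt1, a metallothionein, had 317 (283 to 354) reads over 118 at chr8:94180070-94180275, and the Cispl list had a region 198 bp away. Its strongest start-site region called in both lists had 1460 with Cispl and 1330 with Oxali. Gclm, the modifier subunit of the enzyme that begins glutathione synthesis, had 340 (305 to 378) over 142 at chr3:122246480-122246701, 84 bp from a Cispl region, and its strongest shared start-site region had 1904 and 1647. On the Cispl side, Pomp, the proteasome maturation protein, had 156 over 24.3, 603 bp from an Oxali region, and was called in Ctrl. Arid2, a SWI/SNF subunit, had 648 over 274, 55 bp from an Oxali region.

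Regions called in both lists were mostly alike. Their median pileup was 118 with Cispl and 99 with Oxali, a log2 shift of 0.19 that was set to 0, and 81.7% of them then lay within 1.5-fold (SD of the log2 ratio 0.46). At least 2-fold higher with Cispl were 2860 (2.16%) and with Oxali 2395 (1.81%), so 54.4% of the differing regions were on the Cispl side. This split depended on the scaling: it was 35.3% Cispl (1960 and 3589 regions) when the genome background was used instead, which shifts all log2 ratios by −0.10, and 65.2% (3542 and 1887 regions) when start-site regions were set to 0. The AP-1 shares did not depend on it, with 13.8% to 14.5% on the Cispl side and 51.7% to 52.1% on the Oxali side. Of the regions higher with Cispl, 68.9% were called in Ctrl, and of those higher with Oxali, 60.5%.

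On the Cispl side, the largest ratio was in an intron of Sidt2, 550 bp from its start, with pileups of 291 and 35 for Cispl and Oxali (log2 ratio 2.87, 2.36 to 3.42) at chr9:45943790-45944582, in a window 85.1% repeat-masked. In Suclg2, which encodes a subunit of succinyl-CoA ligase, an intronic region at chr6:95593116-95594221 had 348 and 58 (2.40, 1.99 to 2.82), next to the Cispl-only region of the same intron with 191 reads. Smarcc1, a core SWI/SNF subunit, had 346 and 60 (2.34, 1.94 to 2.76) in a window 68.2% repeat-masked. Ncoa2, a coactivator of steroid receptors, had 176 and 31 (2.32, 1.76 to 2.92) at chr1:13157159-13158096. Pafah1b1, Tmem87a, Tbc1d9b, Slc25a33, Uimc1 and a site 75928 bp from the start of Oxtr had log2 ratios from 2.29 to 2.60. At its start site, the antiplasmin gene Serpinf2 had 165 and 30 (2.27, 1.70 to 2.88), with a steroid receptor element in the window.

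On the Oxali side, a site 313270 bp from the start of Klf4, a pluripotency and differentiation factor, had 39 and 172 (−2.33, −2.87 to −1.82) at chr4:55845521-55846269. In an intron of Ranbp9, a scaffold of a ubiquitin ligase complex, 559 bp from the start, pileups were 40 and 172 (−2.29, −2.83 to −1.79) at chr13:43411705-43412552. Mfhas1, a regulator of Toll-like receptor signalling, had 28 and 117 (−2.25, −2.90 to −1.65) at chr8:35614062-35614676. A coding exon of Prdm11 had 39 and 172, and a site 77001 bp from the start of Mtss1, a membrane-bending protein gene, had 50 and 204 (−2.22, −2.69 to −1.76). In Lmf1, 197 and 802 reads lay in a window 90.0% repeat-masked, and in Nectin3, 32 and 124 lay in a window where 93.8% of 10-base words recurred. Of the 10 shared regions of lowest ratio, 2 were called in Ctrl, those in Lmf1 and Nectin3, against 8 of the 10 of highest ratio, with Sidt2 and Ncoa2 as exceptions. Start sites on this side included Lamb3, a laminin subunit of epithelial adhesion, with 35 and 104 (−1.76, −2.36 to −1.19), and Ifna13, a type I interferon gene of a family of near-identical copies, with 123 and 420 (−1.96, −2.26 to −1.67).

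Start sites as a class differed little. Of 13624 protein-coding genes with a start-site region called in both lists, 65 (0.477%) were at least 2-fold higher with Cispl and 54 (0.396%) with Oxali. Their median log2 ratio was −0.10, and 3845 lay above 0. The gene lists described next held 229 genes, 214 of them with such a region. None of the 214 reached 2-fold at the start site, and the medians of the lists were between −0.20 and −0.08. Across these lists, 130 genes had a Cispl-only and 62 an Oxali-only region, to be read beside 47.6% and 26.2% of all protein-coding genes and a median gene length of 17.4 kb.

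The first lists follow the drugs into the cell. Of 18 genes of platinum uptake, efflux and binding (median length 33.0 kb), 11 had a Cispl-only and 8 an Oxali-only region. The efflux pump Abcc2 had 5 and 1, the copper pump Atp7a had 3 and 1, and the organic cation transporter Slc22a3 had 2 and 2. At start sites, the glutathione synthetase gene Gss had 473 with Cispl and 671 with Oxali (log2 ratio −0.69, −0.86 to −0.52), and Gclc, the catalytic partner of Gclm, had 838 and 974 (−0.40, −0.54 to −0.27). The copper transporter Slc31a1, a route of platinum entry, had 1455 and 1372 (−0.10, −0.21 to 0.00), at the median of all genes.

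Among genes of adduct recognition and repair, Cispl-only regions were in 9 of 12 genes of mismatch repair and adduct binding, 12 of 15 of nucleotide excision repair and 15 of 22 of crosslink repair and translesion synthesis, with Oxali-only regions in 3, 4 and 9. These genes are long (median 36.5, 29.9 and 49.0 kb), which goes with more regions of either kind. Hmgb1, whose protein binds platinated DNA, had 6 Cispl-only and 1 Oxali-only region. Ercc6, which recruits repair to stalled polymerases, had 6 and 0, the Y-family polymerase Rev1 had 6 and 0, Fancc had 6 and 1, and Fanci had 1 and 2. The translesion polymerase gene Poli was at 697 and 901 (−0.56, −0.70 to −0.41), and Polh at 637 and 698 (−0.32, −0.48 to −0.16).

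Damage and stress responses came next. Of 21 p53 targets, 11 had a Cispl-only and 5 an Oxali-only region. The nuclease gene Aen had 5 and 0. Cdkn1a, the p21 cell cycle inhibitor, had no one-list region and start-site pileups of 806 and 769 (−0.12, −0.26 to 0.02), Mdm2 had 773 and 721 (−0.09, −0.24 to 0.06), the death receptor Fas had 232 and 313 (−0.62, −0.87 to −0.37), and Trp53inp1, an autophagy regulator, had 971 and 749 (0.19, 0.05 to 0.33). Of 22 genes of ER stress and immunogenic death, 15 had a Cispl-only and 7 an Oxali-only region. Ern1, the sensor IRE1, had 9 and 2 and start-site pileups of 1308 and 1014 (0.18, 0.06 to 0.30), and the stress factor Atf3, also of the AP-1 list, had 1 and 3. Calr, whose protein appears on the surface of cells in immunogenic death, had 1482 and 1573 at its start site (−0.27, −0.38 to −0.17). Of 22 genes of RNA polymerase I and ribosome assembly, 13 and 5 had such regions. Of 19 genes of cell cycle arrest and senescence, 10 and 8 did, with 5 and 1 at the lamin gene Lmnb1 and 4 and 1 at Rb1, the retinoblastoma gene.

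The start sites of the AP-1 genes differed little. Of 14 family members, 5 had a Cispl-only and 3 an Oxali-only region, and all 13 with a shared start-site region had log2 ratios between −0.37 and −0.03. Fos had 1305 and 1307, and Jund 1991 and 1786. Of 21 genes of NF-κB signalling, 13 had a Cispl-only and 2 an Oxali-only region, and the median start-site ratio was −0.20. Rela, the main activating subunit, had 1098 and 848 at its start site (0.19, 0.05 to 0.32), and the atypical inhibitor gene Bcl3 had 826 and 976 (−0.43, −0.56 to −0.29). Of 28 genes of interferon signalling, 13 and 5 had one-list regions, with 7 and 1 at the kinase gene Jak1, 7 and 0 at Irf2, and 0 and 2 at Mx1.

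Nfkb1 encodes the p50 subunit of NF-κB and is a gene that the study examined. It had 9 Cispl-only and 2 Oxali-only regions beside 11 that both lists called, and the Ctrl list held all 11. The 9 had pileups of 36 to 106 and the 2 had 32 and 36. The start site, also open in Ctrl, had 605 and 480 reads (0.15, −0.03 to 0.32) at chr3:135690531-135692083. Within the gene, 381 and 166 stood at chr3:135647575-135648422 (1.01, 0.74 to 1.28) and 98 and 37 at chr3:135652625-135653890 (1.22, 0.66 to 1.80). Another intronic site was higher with Oxali, with 69 and 118 (−0.96, −1.41 to −0.52) at chr3:135670873-135671330, and both Oxali-only regions, at chr3:135669222-135669393 and chr3:135670626-135670820, lay beside it.

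**Figure D5:**
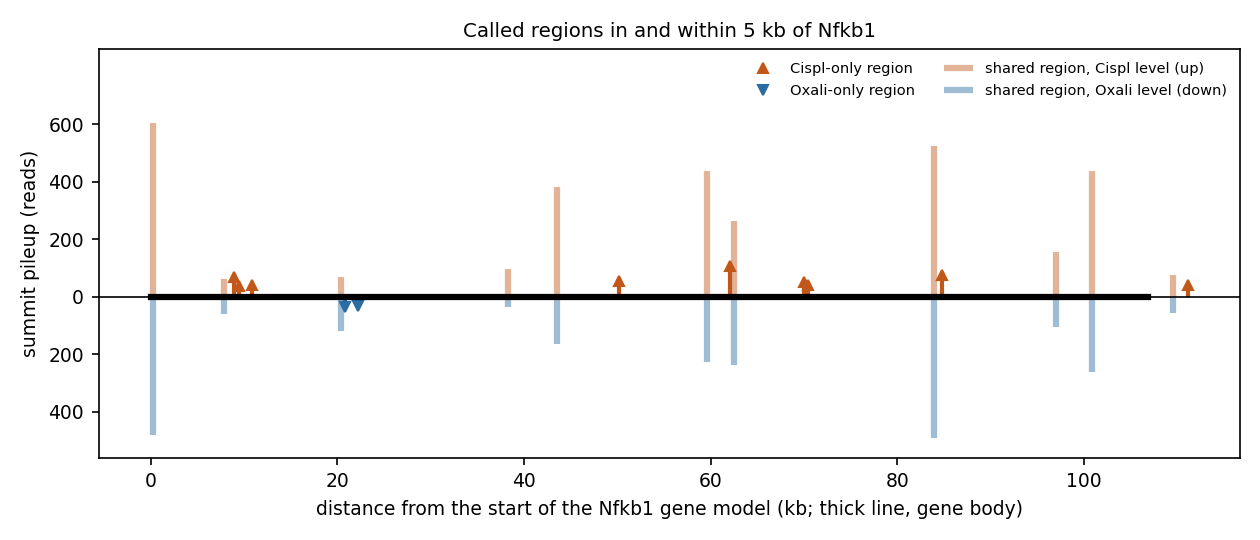
Regions in and within 5 kb of Nfkb1 by distance from the start of the gene model (kb), with the summit pileup in Cispl drawn upward and in Oxali downward, and one-list regions as triangles. The 9 Cispl-only regions have pileups of 36 to 106 and the 2 Oxali-only regions 32 and 36.

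The class I antigen presentation genes that the study followed with oxaliplatin were open with both drugs. Of 18 such genes, 5 had a Cispl-only and 5 an Oxali-only region. The start-site region that Psmb9 and Tap1 share, for an immunoproteasome subunit and a peptide transporter subunit, had 769 and 723 reads (−0.10, −0.25 to 0.05) at chr17:34186915-34188442. A start-site region within 5 kb of both Psmb8 and Tap1 had 197 and 200 (−0.21, −0.50 to 0.08) at chr17:34197319-34198466. In the Psmb8 and Tap2 locus, a stronger start-site region at chr17:34204346-34205168 had 300 and 328 (−0.32, −0.55 to −0.09), and an Oxali-only start-site region of 46 reads lay at chr17:34203397-34203694. An intronic region of Tap2 at chr17:34210332-34211237 was higher with Oxali, with 462 and 630 (−0.64, −0.81 to −0.46), whereas another start-site region of this locus at chr17:34205962-34206203 was higher with Cispl, with 242 and 157 (0.44, 0.14 to 0.74). In Nlrc5, the transactivator of class I genes, an exonic region at chr8:94515310-94517354 was higher with Cispl, with 295 and 116 (1.16, 0.84 to 1.48). The 5 shared start-site regions of this gene had log2 ratios from −0.70 to 0.27, with 429 and 366 (0.04, −0.16 to 0.25) at the strongest, chr8:94524377-94525311, and 137 and 106 (0.18, −0.19 to 0.56) at chr8:94433601-94434674. B2m, the class I light chain, had 801 and 608 (0.21, 0.06 to 0.36). Ifngr2, a chain of the IFNγ receptor, had 165 and 138 (0.07, −0.26 to 0.41) at chr16:91546760-91547908 and 134 and 83 (0.50, 0.10 to 0.92) at another start-site region, chr16:91561118-91561395. When the genome background set the scale, the 0.04 of Nlrc5 and the 0.07 of Ifngr2 turned negative. The Psmb9 and Tap1, Psmb8, Tap2 and Ifngr2 regions and the Nlrc5 regions given with pileups were also called in Ctrl, whereas 2 of the 5 start-site regions of Nlrc5, that at −0.70 among them, were not.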

How the data were processed

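ATAC-seq peak lists of Cispl, Oxali and Ctrl Myc-CaP cells were used as deposited. Per the study's methods and the submitters' processing notes, the authors trimmed reads with cutadapt, aligned them to mm10 with Bowtie2 2.2.8, removed duplicate and mitochondrial reads, pooled the 2 replicates of a condition, called peaks with MACS2 2.1.0 without a control library and removed blacklisted regions. The deposited columns hold the fold, a ratio of pileup plus 1 to local background plus 1, the −log10 p-value and, as a score, the −log10 of the q-value. The authors' counts per replicate were not analysed here.

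The whole-number pileup of each summit was recovered from the fold and the p-value (largest error in −log10 p 0.009). Summits with the same start and end were merged to regions. Levels of shared regions were scaled to a median log2 ratio of 0, and a difference was at least 2-fold. Positions came from GENCODE M21, and windows from GRCm38. Intervals were Wilson for shares, exact Poisson for pileups and exact conditional binomial for ratios. All steps used Python 3.11.15 (pandas 2.3.3, scipy 1.17.1) and were tested on simulated data. Regions were named as the 10 of lowest q on each side and the 10 shared regions of highest and of lowest ratio with a pileup of at least 50 in a list. In each gene list, genes were named from those with the most one-list regions and the highest and lowest start-site ratios, with the loci that the study examined. Other regions and genes, such as those at start sites, were added after their values were seen. The members, gene lists and motifs were chosen with earlier results of these data known. Some genes and regions that these rules name are not reported here.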

Additional observations from a re-analysis of the deposited data

How the results depend on the processing

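No paired analysis was possible because the 2 libraries of each condition were pooled before peaks were called, and for the same reason no library could be left out. Of the main values recomputed, 26 moved beyond their spread or by over 1.5 times, and 36 did not. The genome-background scaling shifted every log2 ratio by −0.10 and turned the sign at 9 of 84 start sites of named list genes and 5 of 35 shared regions of the studied loci. The start-site scaling shifted them by 0.06 and turned 7 and 1. All of these ratios had an interval that held 0. The genome-background scaling gave 1960 regions at least 2-fold higher with Cispl and 3589 with Oxali, against 2860 and 2395. At a q-value of at most 1e-05, 21999 Cispl-only and 9945 Oxali-only regions remained, the Cispl-only share was 68.9%, the Ctrl list held 20.99% and 13.5%, 12.6% of Cispl-only regions were at start sites, 40 listed genes had an Oxali-only region, and the Oxali-only AP-1 share was 33.8%. The Cispl-only share was 64.9% for all deposited regions, 67.4% with the same p minimum in both lists, 65.0% at matched depth and 51.8% at equal ranks. At matched depth the Ctrl list held 18.5% of Cispl-only regions. With no region of the other list within 500 bp, 22969 Cispl-only regions remained (63.5% of all one-list regions), and AP-1 shares were 13.6% and 33.3% for Cispl-only and Oxali-only. Start sites of 250 bp on either side held 4.31% and 3.41%, and counting start sites only left 32 and 14 listed genes, by construction. Subtracting the background gave 6614 and 5117 shared regions at least 2-fold higher with Cispl and Oxali, with AP-1 shares of 14.5% and 46.8%. Genome-background scaling moved the median start-site ratio of listed genes from −0.11 to −0.22. Windows of 50 bp on each side lowered AP-1 shares to 8.34% and 23.4%. The matched-depth and 500 bp settings for motifs and the start-site scaling of gene lists were added after the data were seen. The causes of the changes that do not follow from a setting's construction were not tested.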
